A study of Mus musculus with 3 samples.

Results

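The interleukin-6 (IL-6) family was followed through 3 single-cell RNA libraries of mouse brain, as 6 cytokine genes and 4 receptor genes. The cytokines were Il6, Il11, Lif, Osm, Clcf1 and Cntf, and the receptor chains were Il6st, Osmr, Lifr and Il6ra. These 10 genes, of 55357 listed in each library, were chosen by name with their measured levels across cell types and libraries already known. Their levels and library differences are therefore given as a description. The cells came from brain tissue around the lesion on the left side of male C57BL/6 mice aged 6 to 8 weeks, labelled as cerebral tissue. One library came from mice with traumatic brain injury (TBI) treated with interleukin-25 at 1 µg per mouse, first within 30 minutes of injury and then daily for 3 days (TBI+IL-25). A second came from mice with TBI given phosphate-buffered saline for 3 days (TBI+PBS), and the third from sham mice. Before capture the tissue went through warm enzyme digestion and removal of dead cells. How many animals went into each library is not labelled. With 1 library per group there was no replicate, no test could be made, and each difference below is one between libraries and not between conditions.

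The cytokines named above signal through gp130, the shared receptor chain that Il6st encodes. IL-6 and IL-11 first bind their own receptor chains, of which Il6ra encodes the one for IL-6, and then assemble pairs of gp130. Leukaemia inhibitory factor (Lif), oncostatin M (Osm), cardiotrophin-like cytokine (Clcf1) and ciliary neurotrophic factor (Cntf) join gp130 to a second signalling chain, Lifr, or in the case of oncostatin M in mouse chiefly Osmr. Janus kinases on these chains phosphorylate STAT3, and STAT3 switches on Socs3, which blocks gp130 in turn. In injured brain the family is known for its part in making astrocytes reactive.

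The start regions of the genes that stood out in astrocyte-like cells, with that of Il6 for comparison, are shown because Lif, Il11 and Osmr were high in the same cells. The windows run from 250 bases before to 50 bases after the annotated start and are credited to RefSeq, build GRCm38.p6, whereas the counts were made on GRCm39. Of the 10 genes, 8 matched an entry, and Osm and Clcf1 are named only. Capitals mark the AP-1 motif TGANTCA, which reads the same on both strands.
Lif, chr11:4257318-4257617, plus strand: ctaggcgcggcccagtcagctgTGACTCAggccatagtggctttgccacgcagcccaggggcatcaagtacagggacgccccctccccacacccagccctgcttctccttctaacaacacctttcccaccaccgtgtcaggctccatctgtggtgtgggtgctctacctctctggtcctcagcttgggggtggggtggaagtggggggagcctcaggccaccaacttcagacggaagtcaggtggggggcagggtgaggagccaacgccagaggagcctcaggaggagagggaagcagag
Il11, chr7:4782808-4783107, minus strand: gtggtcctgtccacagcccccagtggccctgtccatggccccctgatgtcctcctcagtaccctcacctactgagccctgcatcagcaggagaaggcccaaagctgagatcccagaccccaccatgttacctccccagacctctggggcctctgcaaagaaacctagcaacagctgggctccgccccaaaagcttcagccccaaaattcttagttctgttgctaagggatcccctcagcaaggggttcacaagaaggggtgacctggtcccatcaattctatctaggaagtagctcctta
Il11, second start, chr7:4778092-4778391, minus strand: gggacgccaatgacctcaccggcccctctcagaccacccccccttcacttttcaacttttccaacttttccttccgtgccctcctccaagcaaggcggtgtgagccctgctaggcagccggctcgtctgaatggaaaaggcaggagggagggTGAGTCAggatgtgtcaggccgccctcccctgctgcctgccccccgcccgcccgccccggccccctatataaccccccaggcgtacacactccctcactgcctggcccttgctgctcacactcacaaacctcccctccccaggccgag
Osmr, chr15:6874264-6874563, minus strand: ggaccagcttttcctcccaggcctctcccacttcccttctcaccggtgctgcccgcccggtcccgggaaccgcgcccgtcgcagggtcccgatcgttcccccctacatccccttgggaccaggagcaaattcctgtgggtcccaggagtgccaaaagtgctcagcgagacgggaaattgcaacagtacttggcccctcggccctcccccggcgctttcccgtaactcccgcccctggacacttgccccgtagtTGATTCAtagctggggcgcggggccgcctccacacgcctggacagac
Il6, chr5:30012864-30013163, plus strand: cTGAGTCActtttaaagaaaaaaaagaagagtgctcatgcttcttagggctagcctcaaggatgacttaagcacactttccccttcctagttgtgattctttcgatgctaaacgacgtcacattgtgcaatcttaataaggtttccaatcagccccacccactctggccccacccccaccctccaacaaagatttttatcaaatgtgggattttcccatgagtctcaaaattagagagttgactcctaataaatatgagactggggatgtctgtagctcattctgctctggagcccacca
The motif began 228 bases before the start in Lif, 98 bases before the second start of Il11, 3 bases after the start in Osmr and 249 bases before the start in Il6. The Cntf window also held it, and the windows of Il6st, Lifr and Il6ra did not. It occurred in 7.81% of all 32851 windows of that length. The STAT motif TTCNNNGAA, in 8.30% of all windows, and the cyclic AMP response motif TGACGTCA, in 1.79%, were in none of the members' windows on either strand. No match of one motif overlapped another, and a match or its absence describes the letters in these windows only.

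The 3 libraries held 61372408, 58148289 and 39536447 UMIs (unique molecular identifiers, 1 per captured RNA molecule) for TBI+IL-25, TBI+PBS and sham. After filtering, 13532, 10299 and 8710 cells remained, with medians of 3841, 4666 and 4111 UMIs. In TBI+IL-25 the mitochondrial ribosomal gene mt-Rnr2 stood at 7531 CPM (counts per 1000000 UMIs of the class or library), against 1233 CPM in TBI+PBS and 1118 CPM in sham, and the file header of that library names another Cell Ranger version. These differences and the treatment cannot be told apart. Between pairs of libraries 24 to 39 cell barcodes were shared. Cells were clustered with the members and their pathway genes left out, so that the clusters do not rest on them. Clusters took the name of the marker list they matched best. Gfap, a pathway gene followed below as a STAT3 target, is also 1 of the 10 astrocyte markers used for naming. Astrocyte-like cells numbered 6691 in TBI+IL-25, 4518 in TBI+PBS and 3277 in sham, and microglia-like cells 5526, 4591 and 4998 in the same order. The largest cluster of a class differed between libraries. Cluster 4 held 39.3% of astrocyte-like cells of TBI+IL-25, cluster 1 held 25.4% of those of TBI+PBS and cluster 3 held 45.8% of those of sham. Cluster 0 held 43.2% of microglia-like cells of TBI+IL-25, cluster 5 held 26.7% of those of TBI+PBS and cluster 2 held 46.4% of those of sham. Every astrocyte-like cluster held at least 9 of 10 astrocyte markers, whereas microglia-like cluster 16 held only 5 of 10 microglia markers. Smaller classes were far thinner, with 105 monocyte/macrophage-like cells in TBI+IL-25, 248 in TBI+PBS and 10 in sham. All intervals are exact 95% intervals and cover counting error only.

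**Figure D1:**
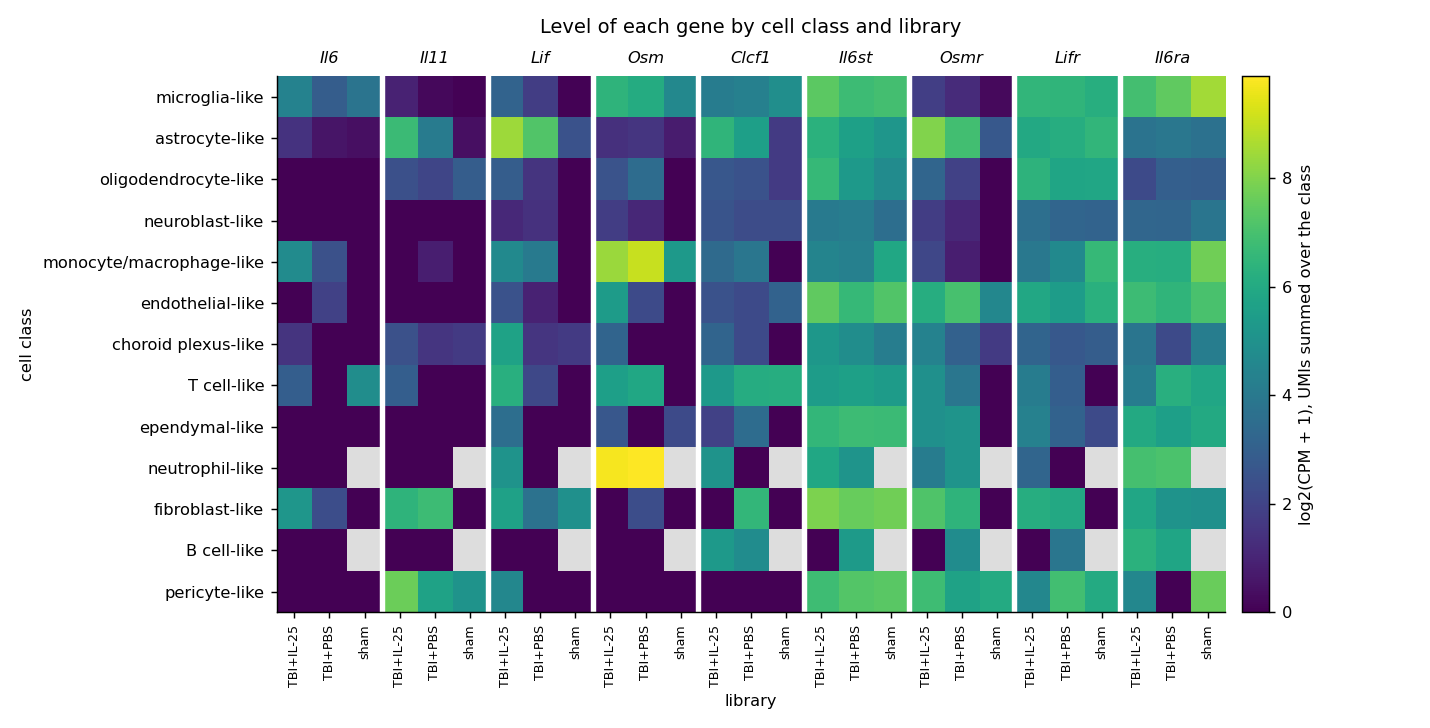
Colour gives log2(CPM + 1) of UMIs summed over each cell class (rows) in each library (columns, grouped by gene); grey marks a class with no cell in that library. Lif is brightest in astrocyte-like cells of both TBI libraries and Osmr in those of TBI+IL-25, while Il11 is brightest in pericyte-like cells of TBI+IL-25 (9 UMIs) and fibroblast-like cells of TBI+PBS (27 UMIs). Osm is brightest in neutrophil-like and monocyte/macrophage-like cells, and Il6ra in microglia-like cells of sham.

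Among the ligands, Lif was an astrocyte transcript. Leukaemia inhibitory factor acts on neural precursors and glia. In astrocyte-like cells it stood at 341 CPM (334 to 349) in TBI+IL-25, 143.5 CPM (138 to 149) in TBI+PBS and 4.55 CPM (3.53 to 5.78) in sham. The TBI+PBS level was 31.5 times the sham level (24.8 to 40.8), and TBI+IL-25 was 2.38 times TBI+PBS (2.28 to 2.48). Astrocyte-like cells held 95.5%, 96.4% and 95.7% of all Lif UMIs in TBI+IL-25, TBI+PBS and sham, although only 67 of those UMIs were in sham astrocyte-like cells. At least 1 Lif UMI was found in 26.4% of astrocyte-like cells of TBI+IL-25, 16.7% of TBI+PBS and 2.01% of sham, and thinning to 2000 UMIs gave 24.6%, 11.2% and 0.770%. Thinned shares here and below leave out cells under 2000 UMIs. They kept 4492 of 6691 astrocyte-like cells in TBI+IL-25, 3428 of 4518 in TBI+PBS and 2599 of 3277 in sham. The cells that held Lif held several copies, 4.19 UMIs on average in TBI+IL-25 and 3.97 in TBI+PBS, against 1.02 in sham. With doublets kept, the TBI+PBS to sham ratio was 12.5 and the TBI+IL-25 to TBI+PBS ratio 6.17. Clustering with doublets kept left 1293 cells of TBI+PBS without a class, against 81 of TBI+IL-25 and 3 of sham. The part of these cells in the doublets-kept values here and below was not tested. With cells weighed equally, the TBI+PBS to sham ratio was 21.0. Smaller classes of TBI+IL-25 held some Lif too. T cell-like cells had 73.1 CPM (45.8 to 110.7) from 22 UMIs, and choroid plexus-like cells 50.1 CPM (37.9 to 65.1) from 56 UMIs. In TBI+PBS each of these 2 classes had 1 Lif UMI. Free RNA was estimated at 22% and 9.13% of their TBI+IL-25 sums, and its part in these values was not tested.

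Il11, an interleukin known for acting on stromal and blood-forming cells, was all but missing from the sham library. Astrocyte-like cells held 2283 Il11 UMIs in TBI+IL-25, 339 in TBI+PBS and 5 in sham, or 105 CPM (101 to 110), 16.2 CPM (14.5 to 18.0) and 0.340 CPM (0.110 to 0.793). The TBI+IL-25 level was 6.49 times that of TBI+PBS (5.79 to 7.30), and the TBI+PBS level was 47.7 times that of sham (20.3 to 148). Shares of astrocyte-like cells with an Il11 UMI were 9.85% in TBI+IL-25, 2.59% in TBI+PBS and 0.153% in sham, or 8.77% and 1.40% in the TBI+IL-25 and TBI+PBS libraries after thinning. With doublets kept the TBI+IL-25 to TBI+PBS ratio was 11.7 and the TBI+PBS to sham ratio 23.4. Il11 was also found in vessel-associated and connective tissue cells, at levels that match or pass the astrocyte one but on few counts. Pericyte-like cells had 202.5 CPM (92.6 to 384) from 9 UMIs in 18 cells of TBI+IL-25, 49.9 CPM (10.3 to 146) from 3 UMIs in TBI+PBS and 32.7 CPM (0.829 to 182) from 1 UMI in sham. Fibroblast-like cells had 84.8 CPM (43.8 to 148) from 12 UMIs in 25 cells of TBI+IL-25 and 109 CPM (71.8 to 159) from 27 UMIs in TBI+PBS, of which 26 lay in 1 cell, against 0 UMIs in sham.

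Clcf1, whose product acts through the ciliary neurotrophic factor receptor, was held by different cells in different libraries. In astrocyte-like cells it stood at 86.0 CPM (82.1 to 90.0) in TBI+IL-25, 46.5 CPM (43.7 to 49.6) in TBI+PBS and 2.17 CPM (1.49 to 3.07) in sham. In microglia-like cells it stood at 16.8 CPM (15.3 to 18.4), 18.7 CPM (17 to 20.4) and 28.7 CPM (26.3 to 31.1) in the same order of libraries. The TBI+PBS to sham ratio was 21.4 (15.1 to 31.5) in astrocyte-like cells and 0.651 (0.574 to 0.737) in microglia-like cells. Astrocyte-like cells held 78.1% of Clcf1 UMIs in TBI+IL-25, 62.9% in TBI+PBS and 5.26% in sham, where microglia-like cells held 92.3%. With doublets kept, microglia-like cells became the main holder in TBI+PBS as well, where 1293 cells were then left without a class. The astrocyte ratio of TBI+PBS to sham was 12.2 with doublets kept and 37.4 after subtraction of free RNA. The TBI+IL-25 to TBI+PBS ratio in astrocyte-like cells was 1.85 (1.71 to 2.00), below 2-fold as counted. It was 2.07 with another scaling (median of ratios), 2.09 with cells weighed equally and 2.76 with doublets kept.

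Osm was a myeloid transcript in every library. Oncostatin M is made by activated macrophages and neutrophils. Neutrophil-like cells had the highest level, 849 CPM over 48 cells of TBI+IL-25 and 937 CPM over 12 cells of TBI+PBS, and sham held none of these cells. Free RNA was estimated at 26.9% of the neutrophil-like sum in TBI+IL-25 and 105% in TBI+PBS, where 12 cells give no usable estimate. Monocyte/macrophage-like cells had 336 CPM (291 to 385) in TBI+IL-25 and 530 CPM (502 to 560) in TBI+PBS, a ratio of 0.633 (0.544 to 0.734), against 39.0 CPM (4.72 to 141) from 2 UMIs in sham. Microglia-like cells had 83.7 CPM (80.3 to 87.1) in TBI+IL-25, 66.0 CPM (62.9 to 69.2) in TBI+PBS and 23.7 CPM (21.6 to 25.9) in sham. Microglia-like cells, 40.8% of cells in TBI+IL-25, 44.6% in TBI+PBS and 57.4% in sham, held 85.6% of Osm UMIs in TBI+IL-25, 53.6% in TBI+PBS and 97.3% in sham. With cells named 1 by 1, monocyte/macrophage-like cells became the main holder of Osm in TBI+PBS. The 248 monocyte/macrophage-like cells of TBI+PBS, 2.41% of its cells, held 42.8%. At least 1 Osm UMI was found in 20.1% of microglia-like cells of TBI+IL-25, 17.3% of TBI+PBS and 8.08% of sham, or 10.2%, 7.32% and 4.08% after thinning. In microglia-like cells the TBI+PBS to sham ratio was 2.79 (2.51 to 3.10) and the TBI+IL-25 to TBI+PBS ratio 1.27 (1.19 to 1.35).

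Il6 itself was sparse and lay in microglia-like cells. This proinflammatory cytokine had 548 UMIs in microglia-like cells of TBI+IL-25, 165 in TBI+PBS and 255 in sham, or 19.6 CPM (18.0 to 21.3), 6.56 CPM (5.6 to 7.64) and 13.01 CPM (11.5 to 14.7). The TBI+PBS library was thus the lowest of the 3, at 0.505 times sham (0.412 to 0.616), and TBI+IL-25 was 2.99 times TBI+PBS (2.51 to 3.58). Microglia-like cells held 89.8%, 86.8% and 97.3% of Il6 UMIs in TBI+IL-25, TBI+PBS and sham. Shares of microglia-like cells with an Il6 UMI were 6.30%, 3.05% and 4.76%, and 3.07%, 1.57% and 2.52% after thinning. Single cells weighed on the TBI+IL-25 sum, since 1 microglia-like cell held 33 of its UMIs. Cntf, a neuroprotective cytokine, was close to undetected, with 4 UMIs in TBI+IL-25, 1 in TBI+PBS and 0 in sham, too few for any comparison.

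**Figure D2:**
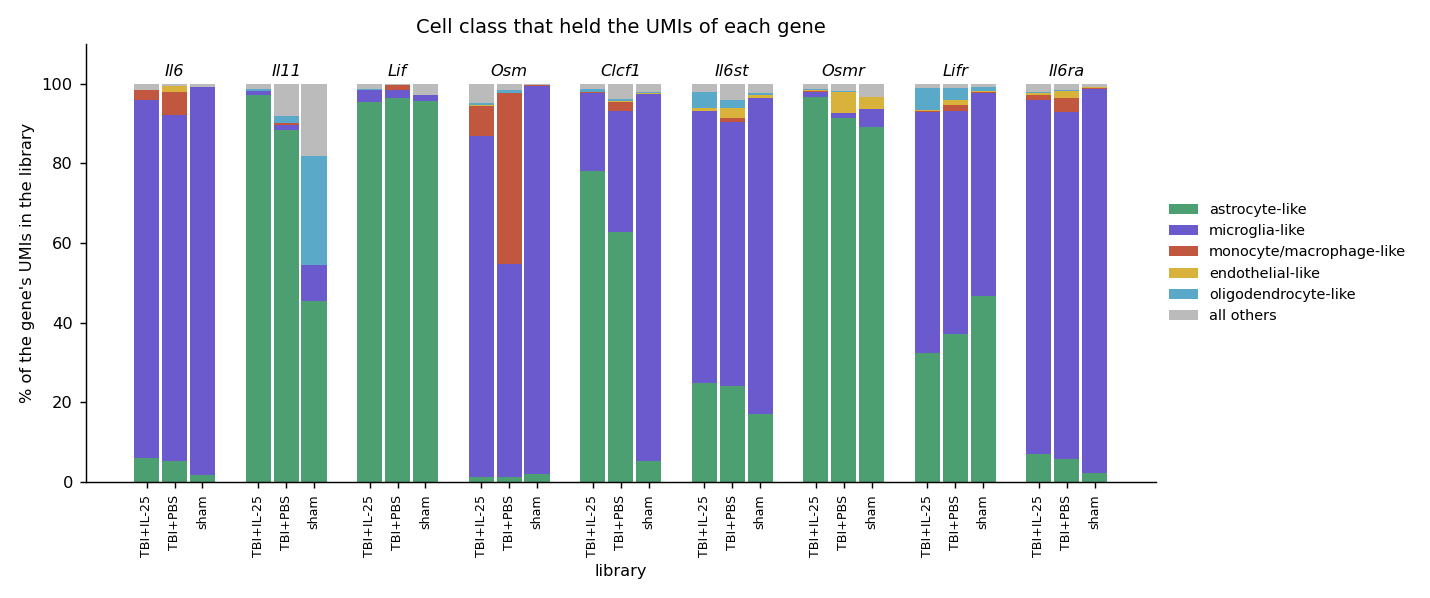
Bars give the percent of each gene's UMIs in a library that each cell class held. Astrocyte-like cells held 95.5% or more of Lif in every library, whereas the main holder of Clcf1 was microglia-like in sham and astrocyte-like in both TBI libraries. With doublets kept that holder was microglia-like in TBI+PBS too, but 1293 cells of that library then had no class. The sham bar of Il11 rests on 11 UMIs.

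RNA free in the suspension gives a class some counts of genes it does not express, so the same shares were taken for markers. In microglia-like cells the 10 astrocyte markers summed to 2.23%, 1.79% and 2.95% of their CPM in astrocyte-like cells of TBI+IL-25, TBI+PBS and sham. Lif in microglia-like cells lay at 2.32%, 1.72% and 1.12% of its astrocyte level, and Osmr at 1.01%, 1.16% and 3.62%. The Lif and Osmr counts of microglia-like cells were thus near the level of astrocyte markers there, including the microglial Lif ratio of 48.4 between TBI+PBS and sham (8.36 to 1940), which rests on 1 sham UMI. Clcf1 in microglia-like cells was above that level, at 19.5% of its astrocyte CPM in TBI+IL-25 and 40.1% in TBI+PBS. In astrocyte-like cells the microglia markers summed to 2.35%, 3.01% and 3.24% of their microglia level, beside 1.87%, 2.83% and 2.87% for Osm. Il6ra in astrocyte-like cells stood at 10.3%, 8.17% and 3.26% of its microglia level. Single microglia markers ran from 1.67% to 37.5% in TBI+IL-25, 2.05% to 27.7% in TBI+PBS and 2.57% to 11.1% in sham. All 3 Il6ra values lay within these ranges and, in the TBI libraries, above the summed marker share. The tops of the ranges lie far above the summed shares, so they cannot tell free RNA from Il6ra made by astrocyte-like cells. The share of microglia-like cells with a Lif UMI was 2.86%, 1.18% and 0.0200%, and that with an Osmr UMI 1.21%, 0.741% and 0.0800%. The share of astrocyte-like cells with an Osm UMI was 0.478%, 0.841% and 0.305%. Median depth was 2955, 4328 and 4511 UMIs in astrocyte-like cells and 4733, 4748 and 3916 UMIs in microglia-like cells, again in TBI+IL-25, TBI+PBS and sham.

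Among the receptors, Osmr lay chiefly in astrocyte-like cells, Il6ra in microglia-like cells, and Il6st and Lifr in both. Osmr, the signalling chain for oncostatin M, was an astrocyte transcript of the TBI libraries. Astrocyte-like cells had 255 CPM (249 to 262) in TBI+IL-25, 117 CPM (113 to 122) in TBI+PBS and 5.64 CPM (4.49 to 6.99) in sham. TBI+PBS was 20.8 times sham (16.7 to 26.2), and TBI+IL-25 was 2.18 times TBI+PBS (2.08 to 2.29). Of astrocyte-like cells, 39.0% of TBI+IL-25, 23.1% of TBI+PBS and 2.26% of sham held an Osmr UMI, and 34.4%, 14.1% and 0.923% did after thinning. Endothelial-like cells, the lining of brain vessels, held Osmr as well, with 69.7 CPM (39.0 to 115) over 50 cells of TBI+IL-25, 129 CPM (108 to 152) over 229 cells of TBI+PBS and 23.03 CPM (4.75 to 67.3) over 37 cells of sham. There the TBI+PBS to sham ratio was 5.59 (1.87 to 27.4), and TBI+IL-25 lay below TBI+PBS at 0.541 times (0.295 to 0.924). Free RNA was estimated at 24.9%, 17.4% and 25.6% of the endothelial-like sums, and its part in these values was not tested.

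Il6st, the shared gp130 chain, was found in nearly every class. Microglia-like cells had 165 CPM (160 to 170) in TBI+IL-25, 108 CPM (104 to 112) in TBI+PBS and 122 CPM (117 to 127) in sham. Astrocyte-like cells had 77.7 CPM (74.0 to 81.5), 47.5 CPM (44.6 to 50.6) and 35.2 CPM (32.2 to 38.4) in the same order. Fibroblast-like cells had 240 CPM, 189.7 CPM and 213 CPM, and monocyte/macrophage-like cells had only 21.2 CPM and 18.8 CPM in TBI+IL-25 and TBI+PBS. The TBI+PBS to sham ratio was 1.35 (1.21 to 1.5) in astrocyte-like cells and 0.885 (0.838 to 0.936) in microglia-like cells. TBI+IL-25 was higher than TBI+PBS in several classes, at 1.64 times (1.51 to 1.77) in astrocyte-like, 1.53 times (1.46 to 1.60) in microglia-like, 1.83 times (1.23 to 2.68) in endothelial-like and 2.54 times (1.98 to 3.29) in oligodendrocyte-like cells. The library itself differed in Cell Ranger version and mt-Rnr2 level, as given above, and the part of these in the Il6st gap was not tested.

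Lifr, the signalling chain for Lif, Clcf1 and Cntf, was lower in astrocyte-like cells of the TBI libraries, with 61.8 CPM (58.5 to 65.2) in TBI+IL-25, 70.03 CPM (66.5 to 73.7) in TBI+PBS and 88.5 CPM (83.8 to 93.4) in sham. In microglia-like cells it ran the other way, with 89.5 CPM (86.1 to 93.1), 87.1 CPM (83.5 to 90.9) and 72.7 CPM (69.0 to 76.6). The TBI+PBS to sham ratio was 0.791 (0.734 to 0.853) in astrocyte-like cells and 1.20 (1.12 to 1.28) in microglia-like cells. Within clusters the astrocyte gap was not seen, with TBI+PBS to sham ratios of 0.956 to 1.18 in 3 clusters and each interval holding 1, whereas 5 of 5 microglia-like clusters gave 1.22 to 1.73 with every interval above 1. TBI+IL-25, the lowest by class, lay above sham in 3 of 3 astrocyte-like clusters, at 1.225 to 1.47 times, with 2 intervals above 1. Against TBI+PBS it lay above in 4 of 5 astrocyte-like clusters, at 0.870 to 1.575 times over all 5, with 3 intervals above 1. Oligodendrocyte-like cells, which make myelin, had 81.4 CPM, 54.2 CPM and 56.5 CPM.

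Il6ra, the chain that binds IL-6, was held chiefly by microglia-like cells, where its level was lowest in TBI+IL-25. Microglia-like cells had 121 CPM (117 to 125) in TBI+IL-25, 174.5 CPM (169 to 180) in TBI+PBS and 358 CPM (350 to 367) in sham, where they held 96.4% of its UMIs. The TBI+PBS to sham ratio was 0.487 (0.469 to 0.506), close to the 2-fold limit, and 0.539 by median of ratios, 0.551 with cells weighed equally and 0.522 with cells named 1 by 1 lay short of it. The TBI+IL-25 to TBI+PBS ratio was 0.696 (0.665 to 0.728). Of microglia-like cells 41.6%, 56.7% and 71.1% held an Il6ra UMI in TBI+IL-25, TBI+PBS and sham, and 22.9%, 31.6% and 50.0% did after thinning. In astrocyte-like cells Il6ra was at 12.4 CPM, 14.2 CPM and 11.7 CPM, and the TBI+PBS to sham ratio of 1.22 (1.01 to 1.48) turned to 0.792 with doublets kept. It was 1.59 with cells named 1 by 1 and 216 after subtraction of free RNA, which leaves almost nothing in sham, so no direction is given. Within the 2 clusters that could be compared it lay at 0.272 to 0.628. Monocyte/macrophage-like cells had 71.7 CPM (52.1 to 96.3) in TBI+IL-25, 70.04 CPM (60.1 to 81.2) in TBI+PBS and 214 CPM (107 to 384) from 11 UMIs in sham. Endothelial-like cells had 107 CPM in TBI+IL-25, 86.1 CPM in TBI+PBS and 130.5 CPM in sham, from 23, 93 and 17 UMIs. Neutrophil-like cells had 124 CPM from 15 UMIs in TBI+IL-25 and 134 CPM from 4 UMIs in TBI+PBS. In TBI+IL-25 both classes were thus near the microglia level, and the part of free RNA in them was not tested.

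**Figure D3:**
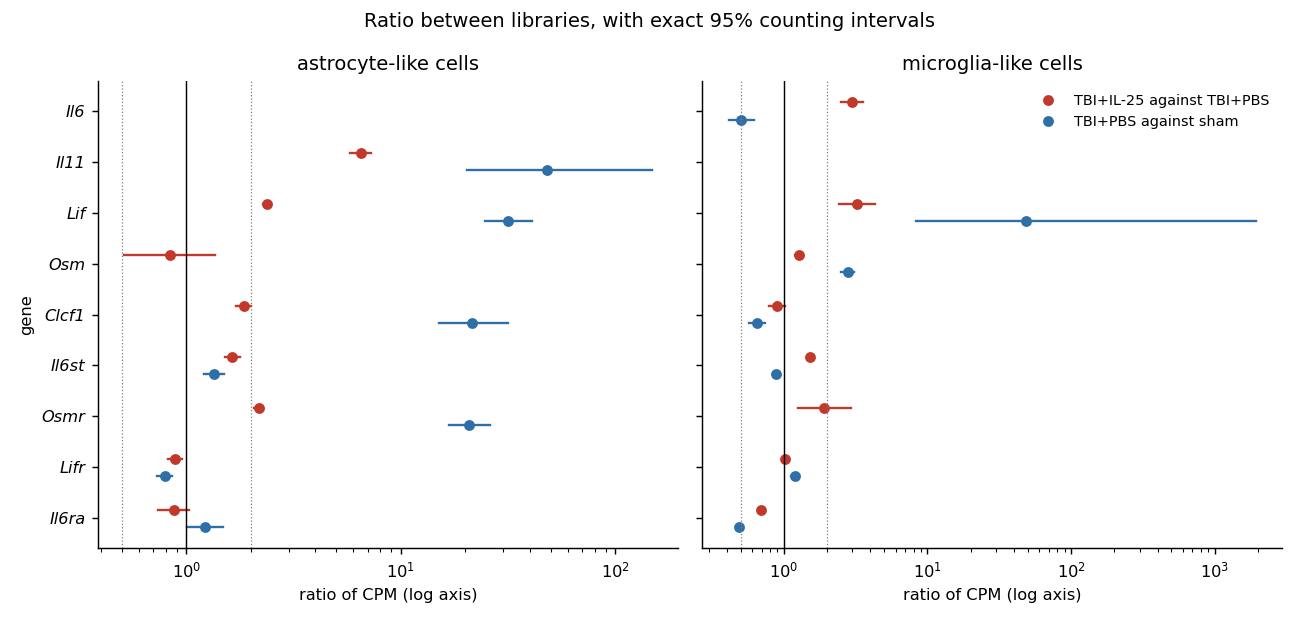
Points give the ratio of CPM between 2 libraries on a log axis, lines the exact interval for counting error, dotted lines a ratio of 0.5 and 2; pairs under 50 UMIs are not drawn. Il11, Lif, Clcf1 and Osmr lie 20.8-fold to 47.7-fold above sham in TBI+PBS astrocyte-like cells, and Il6ra lies at 0.487 in microglia-like cells.

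Counted against all genes with at least 50 UMIs over both libraries, 4 of 7 members in astrocyte-like cells (Il11, Lif, Clcf1 and Osmr) were at least 2-fold higher in TBI+PBS than in sham, where 6.32% of all genes were. None was at least 2-fold lower, beside 4.45% of all genes. In microglia-like cells 2 of 7 (Lif and Osm) were higher, beside 6.13%, and 1 (Il6ra) was lower, beside 5.85%. Between TBI+IL-25 and TBI+PBS, 3 of 8 members (Il11, Lif and Osmr) were higher in astrocyte-like cells, beside 3.75%, and 0 were lower, beside 10.1%. In microglia-like cells 2 of 8 (Il6 and Lif) were higher, beside 4.03%, and 0 were lower, beside 3.55%. Il6, Osm and Cntf in astrocyte-like cells and Il11, Osmr and Cntf in microglia-like cells had too few UMIs for the TBI+PBS and sham pair. As the genes were chosen on these libraries, nothing is read from these counts. The TBI+PBS library serves in both comparisons, so the 2 sets of ratios share it.

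Within astrocyte-like cells most Lif and Il11 UMIs of the TBI libraries lay in clusters that belonged mostly to one library, and with 1 library per group such a cluster and its library cannot be told apart. Cluster 4, led by Lif, Flnc, Il11 and Hbegf, had 2630 cells of TBI+IL-25, 87 of TBI+PBS and 1 of sham, and Lif stood there at 537 CPM in TBI+IL-25 and 352 CPM in TBI+PBS. Il11 in that cluster stood at 173 CPM and 85.2 CPM in the same order, and Clcf1 at 135 CPM and 117 CPM. Cluster 11, led by Olfm2, Neat1 and Col5a3, had 109 cells of TBI+IL-25 and 1101 of TBI+PBS. In it TBI+IL-25 lay below TBI+PBS for Lif at 143 CPM against 285 CPM, for Il11 at 10.4 CPM against 28.1 CPM and for Clcf1 at 29.1 CPM against 75.5 CPM. Cluster 14, led by Lcn2, had the highest Osmr, 396 CPM in TBI+IL-25 and 372 CPM in TBI+PBS. Clusters 1, 3, 9 and 13 held over 200 cells of every library. In cluster 13, led by Crym and Six3, Lif was 172 CPM in TBI+IL-25, 24.6 CPM in TBI+PBS and 5.07 CPM in sham, and Osmr 227 CPM, 34.9 CPM and 5.07 CPM. Il11 there was 28.7 CPM in TBI+IL-25 and 2.83 CPM, from 3 UMIs, in TBI+PBS, with 0 UMIs in sham. The TBI+IL-25 to TBI+PBS ratio in that cluster was 7.01 for Lif (4.67 to 10.9) and 6.51 for Osmr (4.62 to 9.41). There the TBI+PBS to sham ratio was 4.84 for Lif (2.05 to 13.2) and 6.89 for Osmr (3.03 to 18.3), on 7 sham UMIs each. Clusters 1 and 3 had less of these genes. In cluster 3, Lif was 19.8 CPM in TBI+IL-25, 14.8 CPM in TBI+PBS and 4.396 CPM in sham, and Osmr 72.1 CPM, 24.7 CPM and 6.92 CPM. The TBI+PBS to sham ratio within cluster 3 was 3.36 for Lif (2.17 to 5.23) and 3.57 for Osmr (2.54 to 5.04).

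**Figure D4:**
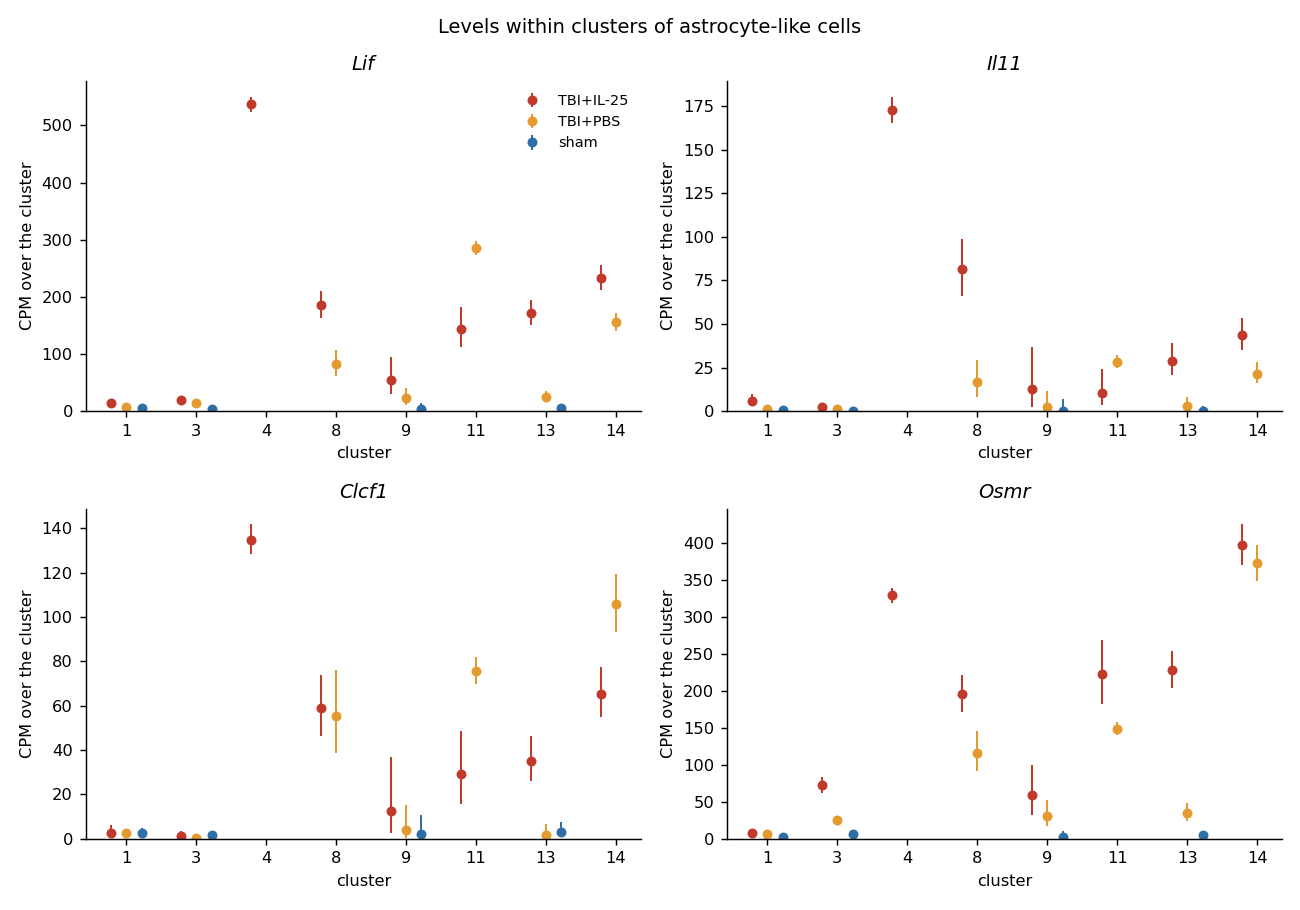
Points give CPM of UMIs summed over each astrocyte-like cluster and library with at least 100 cells, with exact Poisson intervals. In cluster 4 Lif reaches 537 CPM in TBI+IL-25. In clusters 1 and 3 Lif and Il11 stay under 20 CPM in every library, whereas Osmr in cluster 3 is at 72.1 CPM in TBI+IL-25. In clusters 9 and 13, also shared by all libraries, Lif is at 54.95 CPM and 172 CPM in TBI+IL-25.

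Within microglia-like clusters the genes behaved differently from one another. For Osm, 4 clusters with at least 100 cells in each of TBI+PBS and sham and 50 UMIs over both gave ratios of 1.04 to 1.53, below the 2.79 of the whole class. Cluster 0, led by Hcar2, Tnf and Ccl12, had Osm at 103 CPM in TBI+IL-25 and 116 CPM in TBI+PBS and held 61.2% and 42.9% of the class's Osm UMIs in those libraries. It had 2390 cells of TBI+IL-25, 751 of TBI+PBS and only 37 of sham. Osm was highest in cluster 16, at 359 CPM in TBI+IL-25 and 175.0 CPM in TBI+PBS, a ratio of 2.05 (1.79 to 2.35). This is the cluster with 5 of 10 microglia markers, led by Spp1 and Adam8. Il6ra by contrast was lower in TBI+PBS than in sham in 5 of 5 such clusters, at 0.610 to 0.830 times, with every interval below 1. Il6st was close to level between TBI+PBS and sham within clusters, at 1.00 to 1.11 times in 5 clusters. It was higher in TBI+IL-25 than in TBI+PBS in 7 of 7 clusters, at 1.27 to 1.83 times. Clcf1 lay at 0.665 to 0.945 times sham in TBI+PBS in 4 clusters, each interval holding 1.

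Il6 was higher in TBI+IL-25 than in TBI+PBS in the 4 microglia-like clusters with at least 50 UMIs over both, by 2.04 to 21.9 times. In clusters 0, 10 and 16 most of those UMIs came from TBI+IL-25. Clusters 6, 7 and 19 fell short of that minimum. Il6 was lower in TBI+IL-25 in cluster 6, at 3.14 CPM (1 UMI) against 8.72 CPM (21 UMIs). It was higher in clusters 7 and 19, at 6.47 CPM against 2.43 CPM and 6.40 CPM against 3.22 CPM. The minimum thus left out the cluster where TBI+IL-25 was lower. The highest ratio was again in cluster 16, with 54.6 CPM over 189 cells of TBI+IL-25 and 2.49 CPM over 248 cells of TBI+PBS. It rests on 69 UMIs in 15 cells of TBI+IL-25, of which 1 cell held 33, and on 6 UMIs in 3 cells of TBI+PBS. In cluster 10, led by Ifit2 and Ifnb1, Il6 stood at 24.3 CPM in TBI+IL-25, 10.8 CPM in TBI+PBS and 13.7 CPM in sham. Between TBI+PBS and sham the Il6 ratio was 0.692 to 1.02 within 3 clusters, and each of those intervals held 1.

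**Figure D5:**
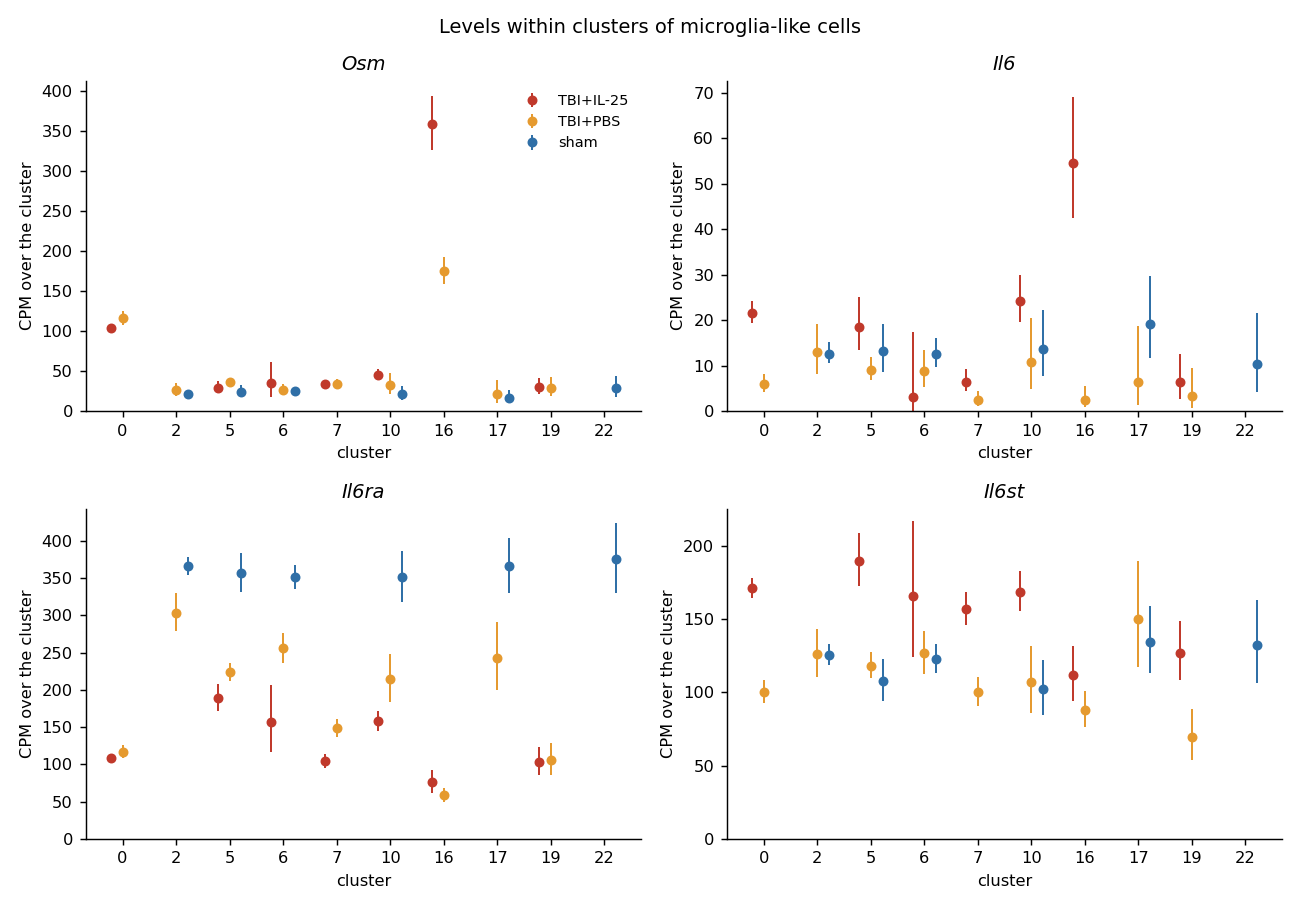
Points give CPM of UMIs summed over each microglia-like cluster and library with at least 100 cells, with exact Poisson intervals. Sham points of Il6ra lie above TBI+PBS points in each shared cluster, at 0.610 to 0.830 times for TBI+PBS against sham, and Osm is highest in clusters 0 and 16.

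Astrocyte-like cells with a Lif UMI held Il11, Clcf1 and Osmr at higher shares than cells without one. After thinning to 2000 UMIs, 16.4% (14.3 to 18.7) of Lif-positive astrocyte-like cells of TBI+IL-25 held Il11, against 6.29% (5.49 to 7.16) of Lif-negative ones. In TBI+PBS these shares were 3.66% (2.01 to 6.06) and 1.12% (0.775 to 1.56). Clcf1 was in 21.4% of Lif-positive and 7.41% of Lif-negative cells of TBI+IL-25, and in 16.5% and 3.05% of those of TBI+PBS. Osmr was in 47.7% of Lif-positive and 30.1% of Lif-negative cells of TBI+IL-25, and in 29.5% and 12.1% of those of TBI+PBS. Lifr was at lower shares in Lif-positive cells. It was in 7.25% (5.79 to 8.94) of Lif-positive and 14.1% (12.9 to 15.3) of Lif-negative cells of TBI+IL-25, and in 7.31% (4.91 to 10.4) and 15.2% (13.9 to 16.5) of those of TBI+PBS.

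The 2 chains of a receptor met in few cells at this depth. Il6st was in 15.1% (13.4 to 17.01) of Osmr-positive and 13.5% (12.2 to 14.7) of Osmr-negative astrocyte-like cells of TBI+IL-25, and in 13.1% (10.2 to 16.4) and 8.59% (7.60 to 9.66) of those of TBI+PBS. In microglia-like cells Il6st was in 28.2% of Il6ra-positive and 26.6% of Il6ra-negative cells of TBI+IL-25, 22.2% and 19.1% of TBI+PBS, and 21.4% and 22.3% of sham. Osm-positive microglia-like cells of TBI+IL-25 held Il6ra in 16.4% (13.3 to 19.9), against 23.6% (22.4 to 24.9) of Osm-negative ones. In sham the shares were 52.8% (45.2 to 60.3) and 49.9% (48.4 to 51.4). The TBI+PBS shares of Osm and Il6ra are not given here. Thinned cells share 1 depth, cells under 2000 UMIs are left out of these shares, and cells of 1 library are not replicates. Shares of this and the preceding paragraph pool all clusters of a class, which differ in genes such as Lif and Osm. The part of cluster make-up in them was not tested.

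The remaining pathway genes were followed as 6 lists, which were drawn up with earlier results of these libraries known. Of 15 STAT3 target genes, 13 were at least 2-fold higher in TBI+PBS than in sham in astrocyte-like cells, with a median ratio of 5.66, against 0.965 over all genes, of which 6.32% were past 2-fold higher. Gfap, the intermediate filament of reactive astrocytes, stood at 1453 CPM in TBI+PBS and 67.7 CPM in sham, and Timp1, a protease inhibitor, had 3349 UMIs in TBI+PBS and 3 in sham, a ratio of 786 (269 to 3814). Lcn2, an iron-carrier binding protein, had 4736 UMIs in TBI+PBS and 0 in sham, which with 3 counts in place of 0 was at least 1112-fold higher. Between TBI+IL-25 and TBI+PBS the median of the 15 targets was 1.37, against 0.872 over all genes. Bcl3 at 2.10 times (1.83 to 2.41) and Cebpd at 2.15 times (2.09 to 2.20) were past 2-fold higher in TBI+IL-25, beside 3.75% of all genes. Lcn2 was past 2-fold lower, beside 10.1% of all genes, at 87.2 CPM in TBI+IL-25 and 226.5 CPM in TBI+PBS, a ratio of 0.385 (0.365 to 0.406). In microglia-like cells 7 of 14 measured STAT3 targets were at least 2-fold higher in TBI+PBS than in sham, beside 6.13% of all genes. They were Bcl3, Bcl6, Pim1, Myc, Serpina3n, Lcn2 and Gfap. The last 3 were low there, with 2.90 CPM of Serpina3n, 4.53 CPM of Lcn2 and 19.8 CPM of Gfap in TBI+PBS. In astrocyte-like cells of that library they stood at 202 CPM, 226.5 CPM and 1453 CPM. Astrocyte markers, Gfap among them, summed to 1.79% of their astrocyte level in microglia-like cells of TBI+PBS.

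Of the inhibitors, Socs1, Socs2 and Socs3 were at least 2-fold higher in TBI+PBS than in sham astrocyte-like cells, of 7 measured, beside 6.32% of all genes. Socs3, which binds gp130 and blocks the kinases, stood at 820 CPM in TBI+IL-25, 294.8 CPM in TBI+PBS and 5.57 CPM in sham. The TBI+PBS to sham ratio was 52.9 (42.6 to 66.7), and the TBI+IL-25 to TBI+PBS ratio 2.78 (2.70 to 2.86). In microglia-like cells Socs3 stood at 792 CPM, 575 CPM and 198 CPM in the same order of libraries. Of 7 kinase and STAT genes, Stat3 alone was at least 2-fold higher in TBI+PBS than in sham astrocyte-like cells, beside 6.32% of all genes. Stat3 stood in astrocyte-like cells at 380 CPM in TBI+IL-25, 244 CPM in TBI+PBS and 48.2 CPM in sham.

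Of 8 immediate early and AP-1 genes, 6 were at least 2-fold higher in TBI+PBS than in sham astrocyte-like cells (Fosl1, Fosl2, Jun, Atf3, Egr1 and Ier3), beside 6.32% of all genes. In microglia-like cells 1 of 7 measured (Ier3) was, beside 6.13%, and the median ratio of the list was 0.714, against 0.903 over all genes. Between TBI+IL-25 and TBI+PBS, 5 of 8 (Fosl1, Fosl2, Atf3, Egr1 and Ier3) were at least 2-fold higher in astrocyte-like cells, beside 3.75%. Fosl1, an AP-1 subunit, stood at 117 CPM in TBI+IL-25, 34.6 CPM in TBI+PBS and 0.0679 CPM, from 1 UMI, in sham. Of 4 other receptor genes 2 were measured, and neither was past 2-fold in either comparison. Cntfr, which binds Clcf1 and Cntf, stood at 166 CPM in TBI+IL-25, 249.5 CPM in TBI+PBS and 363 CPM in sham astrocyte-like cells. Il11ra1, which binds IL-11, was at 48.9 CPM, 65.2 CPM and 65.0 CPM there, and at 58.9 CPM, 69.8 CPM and 56.6 CPM in microglia-like cells. Between TBI+IL-25 and TBI+PBS astrocyte-like cells, Ctf1 of 2 other cytokines measured was past 2-fold lower, beside 10.1% of all genes. Tyk2 of 7 kinases and STATs and Ptpn6 of 8 inhibitors were past 2-fold lower too. Of those inhibitors, Cish and Socs3 were past 2-fold higher, beside 3.75% of all genes. Cntfr, Il11ra1, Ctf1, Tyk2, Ptpn6 and Cish were named after their values were seen, so nothing is read from these counts.

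Across 28 sums of a class in a library, each gene was set beside all others by Pearson correlation of log2(CPM + 1). Osm was most like Lilrb4a, Nfkbid and Hcls1, with 0.951, 0.934 and 0.911. Il6ra was most like Ctsh, Tgfbr2 and Gm37125, with 0.885, 0.878 and 0.867, and Il6st most like Pros1, Extl3 and Sparc, with 0.883, 0.825 and 0.815. Osmr lay closest to Mtmr11, Angptl4 and Hbegf, from 0.877 to 0.832, and Lifr to Bmyc, Ccdc152 and Pmp22, from 0.871 to 0.840. Lif lay closest to Id2, Nupr1 and Slc39a14, from 0.833 to 0.809, and Il11 to Aspg, Efemp1 and Gjb2, from 0.838 to 0.821. Il6 lay closest to A130077B15Rik, Ppib and Gm15655, from 0.845 to 0.823, and Clcf1 to Sbno2, Hmga1 and Map3k14, from 0.783 to 0.730. The sums share libraries, depth and free RNA, so these values only describe them.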

How the data were processed

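Gene-by-cell matrices of UMI counts, 1 per library, were used as the authors deposited them. Cell Ranger 7.2.0 and GRCm39 are named in the submitters' processing notes, whereas the file headers name 7.1.0 for sham and TBI+PBS and 7.2.0 for TBI+IL-25. Whether intron reads were counted is not given in the sources used here. Barcodes below 500 UMIs or 300 genes, or above 20% in mitochondrial UMIs, were left out, and those with a Scrublet score above 0.2, a limit set after the scores were seen, were removed as doublets (635 in TBI+IL-25, 301 in TBI+PBS and 211 in sham). Cells were clustered on 2000 variable genes without the members and pathway genes (30 components, 15 neighbours, Leiden resolution 1), and clusters were named from fixed marker lists. Counts were summed per class and library and given as CPM with exact Poisson intervals, ratios with exact conditional binomial intervals and shares with Clopper-Pearson intervals. Shares were also taken after thinning to 2000 UMIs, with cells under 2000 UMIs left out. A ratio counted as past the limit at 2-fold or more with at least 50 UMIs over both libraries, and against 0 counts 3 were used. Pathway genes past this limit between TBI+PBS and sham could be named, and the 3 genes most like each member. Members and lists were chosen with earlier results of these data known. The calculations were tested on simulated data. Clustering used scanpy 1.11.5 and leidenalg 0.10.2, and intervals SciPy 1.17.1, under Python 3.11.15.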

Additional observations from a re-analysis of the deposited data

Results flagged for a closer look

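For 4 genes the TBI+PBS to sham ratio lay on opposite sides of 1 in astrocyte-like and microglia-like cells. Clcf1 was 21.4 in astrocyte-like and 0.651 in microglia-like cells. Its astrocyte ratio was 12.2 with doublets kept and 37.4 after subtraction of free RNA. Within 4 microglia-like clusters its ratio was 0.665 to 0.945, each interval holding 1. Il6st was 1.35 in astrocyte-like and 0.885 in microglia-like cells, but in microglia-like cells it was 0.979 by median of ratios and 1.00 to 1.11 within 5 of 5 clusters. Il6ra was 1.22 in astrocyte-like and 0.487 in microglia-like cells, but in astrocyte-like cells it was 0.792 with doublets kept, 0.272 to 0.628 within 2 clusters and 216 after subtraction of free RNA. Lifr was 0.791 in astrocyte-like and 1.20 in microglia-like cells, and 0.956 to 1.18 within 3 astrocyte-like clusters. With 1 library in each group the difference between the classes was not tested.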

How the results depend on the processing

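No paired analysis was possible because each group had 1 library, and for the same reason no replicate could be left out. Over 8 alternatives, 30 member ratios gave 236 values, of which 187 moved by less than their counting interval, 48 moved further and 1 reversed. The reversed value was Il6ra in astrocyte-like cells with doublets kept, at 0.792 for TBI+PBS against sham. Clustering with members and pathway genes kept left 1382 cells of TBI+IL-25, 1385 of TBI+PBS and 0 of sham without a class. Naming cells 1 by 1 left 634, 308 and 105 without a class in the same order. The part of these unnamed cells in the alternative values was not tested. Of members in microglia-like cells, the number at least 2-fold higher in TBI+PBS than in sham was 4 with no minimum count and 1 with at least 200 UMIs, and the number lower was 2 with no minimum and 0 by median of ratios. With no minimum, 4 were higher in TBI+IL-25 than in TBI+PBS. The shares of all genes past 2-fold at these other settings are not set beside these counts, so nothing is read from them. With doublets kept, TBI+IL-25 to TBI+PBS ratios in microglia-like cells were 5.38 for Lif and 4.05 for Osmr; the cause was not tested, but 1293 cells of TBI+PBS then had no class, against 81 of TBI+IL-25 and 3 of sham. Il6, Il11 and Cntf are limited by low counts.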
